A study of Homo sapiens with 8 samples.

Results

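The genes of the collagen, laminin, fibronectin and integrin families were examined in RNA-seq counts of cells labelled A549, a human lung adenocarcinoma line. Members were the protein-coding genes whose names follow the pattern of a collagen chain (COL, number, A, number), a laminin chain (LAMA, LAMB or LAMC with a number) or a numbered integrin subunit (ITGA or ITGB), together with ITGAV, ITGAE, ITGAL, ITGAM, ITGAX and FN1. This gave 82 members of 58735 genes in the count table, 19951 of them protein-coding, and comprised 44 collagen chains, 12 laminin chains, 25 integrin subunits and fibronectin. The rule uses names and no measured value, though the families were picked with earlier results of these data known. The EV group held 4 libraries of cells transduced with an empty lentiviral vector, and the KRT19 group held 4 libraries of cells stably transduced with a lentivirus for Flag-tagged KRT19, the gene of keratin 19. Both groups had been through transduction and were grown in RPMI-1640 with fetal bovine serum, and the methods of the study say that transduced lines were kept in puromycin to select stable cells. Each group is 1 transduced line as far as the labels and methods say, so the overexpressed gene and any other difference between the lines cannot be told apart. Nothing says that the libraries of a group came from separate cultures, so the p-values measure only the spread between these libraries, which may be technical.

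Collagens, laminins and fibronectin are secreted proteins of the extracellular matrix, and integrins are the receptors with which cells hold on to it. A collagen is a triple helix of alpha chains, either of 1 kind or of several kinds that must be made together, and a laminin is a cross-shaped trimer of an alpha, a beta and a gamma chain. An integrin is a pair of an alpha and a beta subunit, so a chain without its partner does not leave the cell as the known complex. Epithelial cells sit on a basement membrane of laminin and collagen IV, which they bind with the laminin receptors α3β1, α6β1 and α6β4. The α6β4 pair links laminin through plectin to keratin filaments in hemidesmosomes, whereas β1 integrins connect to actin through talin and vinculin. In bulk RNA, fewer cells of a type and less RNA per cell cannot be told apart, and a transcript level does not give the amount of protein.

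Library totals lay between 14073065 and 17054364 counts, and the KRT19 transcript had 1 to 5 counts in EV and 4353 to 5147 counts in KRT19 libraries (log2 fold change 10.75 ± 0.12, SE). KRT19 replicate 3 stood apart from the other KRT19 libraries, since the chi-square over genes, divided by its degrees of freedom, was 7.72 to 13.6 against them and 2.79 to 3.76 between the others. Levels are given as TPM, transcripts scaled to a common total and computed from the counts and the deposited gene length, so that genes can be compared per length. Of the epithelial markers, KRT8 (100 to 119 TPM), KRT18 (309 to 382 TPM) and KRT7 (1.94 to 3.76 TPM) were present, while EPCAM and CDH1 did not exceed 0.279 and 0.0341 TPM. CDKN2A (79.7 to 89.7 TPM), CDKN2B (29.7 to 34.6 TPM) and MTAP (10.1 to 12.7 TPM) were expressed, although the A549 line is known to lack this stretch of chromosome arm 9p. AKR1B10, AKR1C1 and AKR1C2, known as abundant in A549, were at 1.73 TPM or less in all 8 libraries, and SFTPA1, SFTPB and SFTPC had 0 counts. These markers go against the cell line named in the labels, and one label text names retina as the source of RNA, where RCVRN and SAG also had 0 counts. The cells are therefore called cells labelled A549 here. The summed level of 6 fibroblast markers was 0.105 to 0.536 TPM in EV and 0.181 to 0.337 TPM in KRT19 libraries, and that of 5 leukocyte markers was 0 to 0.759 and 0.488 to 1.07 TPM. Of these leukocyte markers, CD3E and MS4A1 had 0 counts and PTPRC did not exceed 0.0255 TPM, while the myeloid markers CD14 (mean 0.143 TPM in EV and 0.386 TPM in KRT19, at most 6 counts) and CD68 (0.148 and 0.338 TPM, at most 4 counts) made up nearly all of the sum, with overlap of the groups. The summed level of 4 endothelial markers was 1.27 to 1.44 TPM in EV and 1.01 to 1.09 TPM in KRT19 libraries, and its part in the results was not tested.

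A member was called expressed when it reached 1 TPM in all 8 libraries, at the floor when it had no more than 3 counts in any library, and low otherwise. With these limits 32 of the 82 members were expressed, 27 were low and 23 were at the floor. The families differed in these counts, with 9 of 44 collagen chains, 8 of 12 laminin chains and 14 of 25 integrin subunits expressed, and FN1 was expressed as well. Summed over their members, integrins reached 1487 ± 22.9 TPM, laminins 447 ± 9.19 TPM, collagens 99.8 ± 2.99 TPM and fibronectin 14.6 ± 0.578 TPM in EV libraries (SD, n = 4). A floor of 3 counts corresponds to 0.126 to 0.156 TPM for a gene of 5 kb. PCR copies cannot be recognised without molecular identifiers, so the error at such a floor may exceed counting error, which was not tested.

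**Figure D1:**
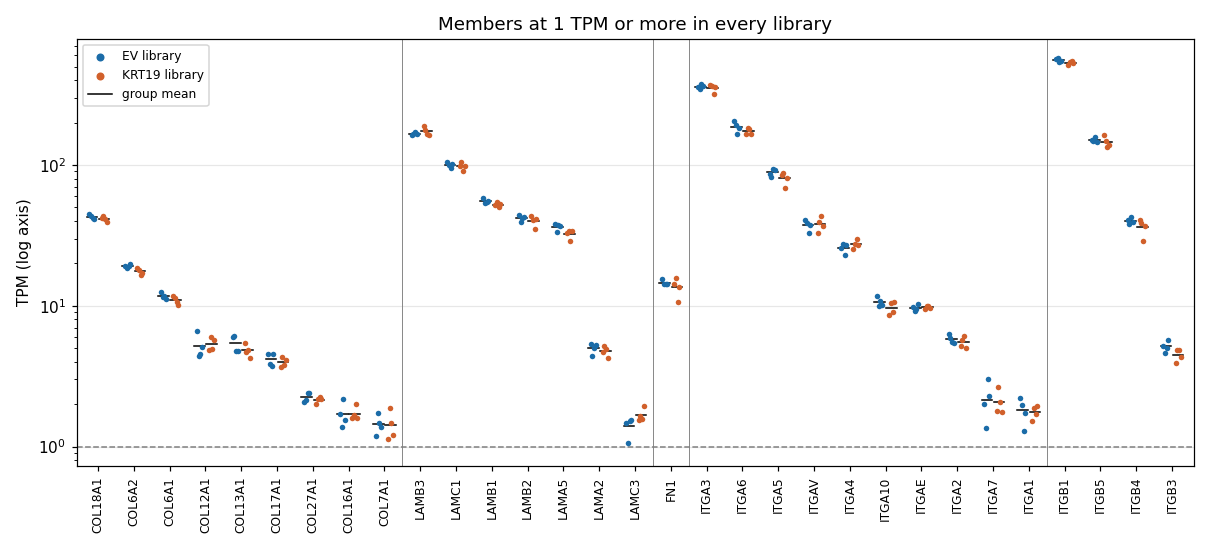
TPM on a log axis of 31 of the 32 members at 1 TPM or more in all 8 libraries, with a point for each EV (blue) and KRT19 (orange) library and a black line for each group mean. Vertical lines separate collagens, laminins, fibronectin, integrin alpha and integrin beta subunits. ITGB1, ITGA3 and ITGA6 stand highest, LAMB3 leads the laminins and COL18A1 the collagens, and the points of both groups lie over each other at nearly every gene.

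Stretches before the start sites of 4 members are shown because these genes carry the contrasts between chains described below. COL6A2 is an expressed collagen VI chain, LAMA5 is the leading laminin alpha chain, LAMB3 is the most abundant laminin chain and LAMA3 is its scarce partner. The sequences are those of RefSeq on GRCh38.p14, read 5′ to 3′ on the strand of the gene from 250 bases before the start up to the start or the first base of a GENCODE 29 exon. The stretches of COL6A2, LAMA5 and LAMB3 end where the gene spans given below begin, which for COL6A2 and LAMB3 is slightly ahead of the RefSeq start, while that of LAMA3 lies within the gene span, ahead of an internal start. Each CpG (the motif CG) is in capitals.
COL6A2: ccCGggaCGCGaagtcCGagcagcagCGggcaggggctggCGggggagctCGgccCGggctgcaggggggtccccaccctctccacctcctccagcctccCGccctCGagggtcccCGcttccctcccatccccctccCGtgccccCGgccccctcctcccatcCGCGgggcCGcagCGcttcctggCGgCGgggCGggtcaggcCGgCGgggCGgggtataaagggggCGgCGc
LAMA5: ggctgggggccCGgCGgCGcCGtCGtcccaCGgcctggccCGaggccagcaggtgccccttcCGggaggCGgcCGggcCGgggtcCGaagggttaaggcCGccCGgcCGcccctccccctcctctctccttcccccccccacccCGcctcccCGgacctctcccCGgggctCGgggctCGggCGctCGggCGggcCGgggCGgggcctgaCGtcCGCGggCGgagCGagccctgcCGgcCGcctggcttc
LAMB3: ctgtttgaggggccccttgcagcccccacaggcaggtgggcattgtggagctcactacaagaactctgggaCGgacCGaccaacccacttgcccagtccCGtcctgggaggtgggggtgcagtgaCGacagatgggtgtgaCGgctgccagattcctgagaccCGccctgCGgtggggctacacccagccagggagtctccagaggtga
LAMA3: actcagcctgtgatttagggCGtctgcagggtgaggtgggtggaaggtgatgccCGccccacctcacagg
These are chr21:46097862-46098096 on the plus strand (235 bases, 25 CpG), chr20:62367313-62367562 on the minus strand (250 bases, 32 CpG), chr1:209652467-209652675 on the minus strand (209 bases, 7 CpG) and chr18:23872770-23872839 on the plus strand (70 bases, 2 CpG). The stretches differ in length, so their CpG numbers are not compared with each other. RefSeq promoter windows, which run from before to just after the start, matched 59 of the 82 members. The median window held 22 CpG in 25 expressed members, 12.5 in 18 low members and 21 in 16 members at the floor, and 14 in all 27305 genes of the table. At least 15 CpG were found in 72% of the expressed members, 44.4% of the low ones and 68.8% of those at the floor, against 48.8% of all genes. Among the windows of members at the floor, those of COL4A1 and COL4A2 held 45 CpG each and that of COL6A3 held 4. CpG number is the same read on either strand and is given as a description of the sequence alone.

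Among the collagens, the leading chain was COL18A1 (chr21:45405137-45513720, GRCh38), a basement membrane collagen whose end is cleaved into endostatin. COL18A1 was at 44.7, 43.2, 42.4 and 41.6 TPM in EV libraries 1 to 4 and at 42.0, 43.1, 41.4 and 39.5 TPM in KRT19 libraries 1 to 4. All 8 values lay within a narrow band and the groups overlapped. Collagen VI, which forms beaded microfibrils, followed with 2 of its chains. COL6A2 (chr21:46098097-46132849) was at 19.1, 18.4, 19.1 and 19.7 TPM in EV and 18.5, 18.03, 16.5 and 17.2 TPM in KRT19 libraries. COL6A1 (chr21:45981737-46005050) was at 12.6, 11.6, 11.7 and 11.2 TPM in EV and 11.8, 11.3, 10.6 and 10.2 TPM in KRT19 libraries. COL6A3, the chain that completes the usual collagen VI trimer, had no more than 1 count in any library, COL6A5 had 0 and COL6A6 no more than 3.

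The remaining expressed collagens were all chains that form homotrimers. COL12A1 (chr6:75084326-75206051), a collagen that decorates fibrils, was at 6.57, 4.41, 4.58 and 5.11 TPM in EV and 4.87, 5.99, 4.95 and 5.74 TPM in KRT19 libraries. COL16A1 (chr1:31652247-31704319), of the same fibril-associated class, was at 1.71, 1.38, 2.18 and 1.54 TPM in EV and 1.59, 1.68, 2.00 and 1.59 TPM in KRT19 libraries. For both genes the EV range covered all KRT19 values. Of the transmembrane collagens, COL13A1 (chr10:69801867-69964275) was at 6.01, 6.07, 4.78 and 4.79 TPM in EV and 5.42, 4.72, 4.88 and 4.29 TPM in KRT19 libraries. COL17A1 (chr10:104031286-104085957), the hemidesmosome collagen also known as BP180, was at 4.56, 3.83, 3.74 and 4.55 TPM in EV and 3.67, 4.30, 3.83 and 4.11 TPM in KRT19 libraries. Both transmembrane chains lay well below COL18A1 in every library. The anchoring fibril collagen COL7A1 (chr3:48564073-48595267) was at 1.19, 1.74, 1.48 and 1.39 TPM in EV and 1.14, 1.88, 1.46 and 1.205 TPM in KRT19 libraries. COL27A1 (chr9:114155560-114312511) was the 1 fibrillar chain of 11 to be expressed, at 2.08, 2.15, 2.41 and 2.41 TPM in EV and 1.99, 2.17, 2.27 and 2.18 TPM in KRT19 libraries. COL7A1 and COL27A1 overlapped between the groups as well.

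The collagens that make up most interstitial and basement membrane matrix were low or at the floor. COL1A1, the main chain of collagen I, was low at 0.501 to 1.18 TPM, and its partner COL1A2 had no more than 1 count. COL3A1 had no more than 4 counts, COL5A1 had 0 in all 8 libraries, and COL2A1, COL5A3 and COL24A1 had no more than 3. COL11A1 and COL11A2 were low, at 0.118 to 0.309 and 0.154 to 0.663 TPM. The main basement membrane chains COL4A1 and COL4A2, which lie head to head on chromosome 13, had no more than 2 and 3 counts. Of the minor collagen IV chains, COL4A5 (chrX:108439844-108697545) was highest, with 1.42, 1.39, 1.41 and 1.52 TPM in EV and 1.25, 1.29, 1.60 and 0.967 TPM in KRT19 libraries. It counted as low because of KRT19 replicate 4 and was expressed without that library. COL4A3 (0.0854 to 0.401 TPM) and COL4A4 (0.215 to 0.397 TPM) were low, and COL4A6 did not exceed 0.0927 TPM. The network collagens COL8A1, COL8A2 and COL10A1 did not exceed 0.248, 0.261 and 0.502 TPM. Of the fibril-associated chains, COL14A1 was at 0.210 to 0.480 TPM, COL9A3 and COL19A1 did not exceed 0.353 and 0.115 TPM, and COL9A1, COL9A2, COL20A1, COL21A1 and COL22A1 were at the floor. COL15A1, COL23A1 and COL28A1 were at the floor, and COL25A1 and COL26A1 had no more than 4 and 6 counts.

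Laminins were the most completely expressed matrix family, with LAMB3, LAMC1 and LAMB1 at the top. LAMB3 (chr1:209614870-209652466), the beta chain of laminin-332 of epithelial basement membranes, was at 164, 166, 171 and 166 TPM in EV and 189, 177, 165 and 164 TPM in KRT19 libraries. LAMA3 (chr18:23689443-23956222), the alpha chain of the same trimer, was at 1.18, 0.901, 0.938 and 0.974 TPM in EV and 1.26, 1.11, 1.02 and 1.07 TPM in KRT19 libraries. These partner chains were therefore present at very unequal levels, with a mean LAMB3 to LAMA3 ratio of 163 (139 to 184) over the 8 libraries. The size of this ratio depends on the deposited gene lengths, 14678 bases for LAMA3 and 4688 for LAMB3. Their longest transcripts have 10661 and 4305 bases. A shorter LAMA3 transcript in these cells would lower the ratio, which was not tested.

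The chains of the laminins that most tissues share were more even. LAMA5 (chr20:62307955-62367312), the alpha chain of laminin-511 and laminin-521, was at 37.8, 33.2, 37.7 and 37.0 TPM in EV and 33.1, 34.1, 29.04 and 33.7 TPM in KRT19 libraries. LAMB1 (chr7:107923799-108003255) was at 57.9, 54.0, 54.2 and 55.1 TPM in EV and 51.7, 54.4, 50.0 and 52.8 TPM in KRT19 libraries. LAMB2 (chr3:49121114-49133118) was at 44.0, 39.3, 42.3 and 43.0 TPM in EV and 43.4, 40.6, 35.0 and 41.6 TPM in KRT19 libraries. KRT19 replicate 3 was the lowest library for all of these chains. LAMC1 (chr1:183023460-183145592), the gamma chain of most laminins, was at 106, 100.2, 95.2 and 102 TPM in EV and 98.9, 105, 90.4 and 98.7 TPM in KRT19 libraries, again lowest in KRT19 replicate 3. Of the lesser chains, LAMA2 (chr6:128883141-129516569), the alpha chain of muscle and nerve laminins, was at 5.33, 4.44, 5.02 and 5.30 TPM in EV and 4.71, 5.19, 4.91 and 4.27 TPM in KRT19 libraries. LAMC3 (chr9:131009082-131094473) was at 1.48, 1.06, 1.53 and 1.55 TPM in EV and 1.55, 1.64, 1.57 and 1.94 TPM in KRT19 libraries. LAMA1, LAMA4 and LAMB4 had no more than 1 count in any library. Of the summed laminin alpha TPM, LAMA5 took 85.2% as the mean of 8 libraries and LAMA2 12.1%, and LAMB3 took 64.2% of the beta chains.

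**Figure D2:**
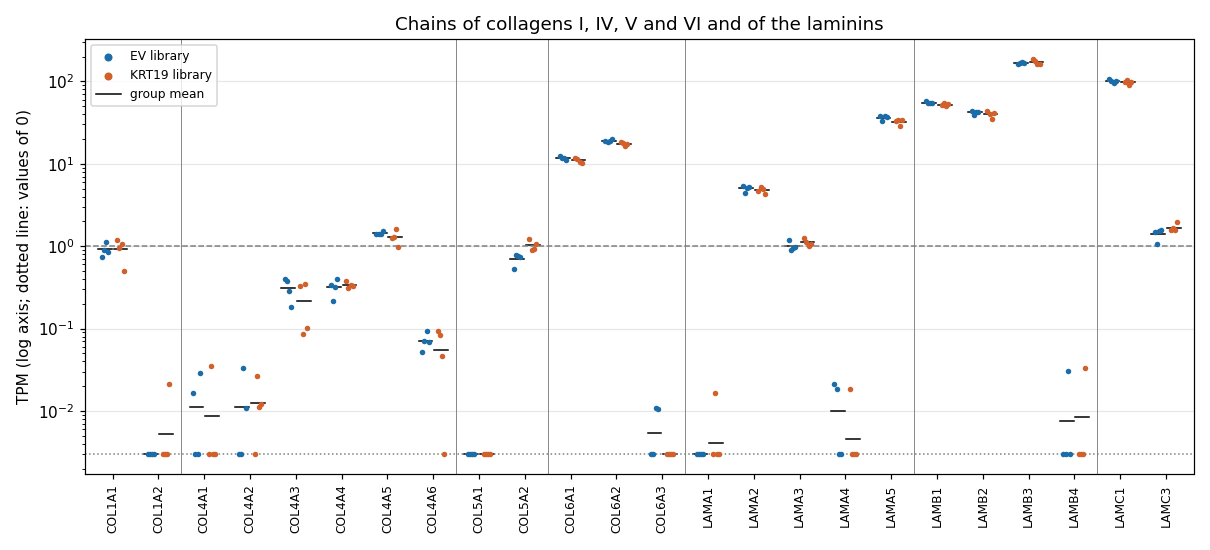
TPM on a log axis for the chains of collagens I, IV, V and VI and for 11 laminin chains, with a point for each EV (blue) and KRT19 (orange) library and a black line for each group mean. The dashed line marks 1 TPM and points on the dotted line are values of 0. COL6A3 lies at or under 0.0110 TPM beside COL6A1 and COL6A2 above 10 TPM, and LAMA3 lies at 0.901 to 1.26 TPM beside LAMB3 at 164 TPM or more.

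Fibronectin, the main ligand of α5β1, was expressed at a moderate level. FN1 (chr2:215360440-215436172) was at 15.4, 14.2, 14.4 and 14.2 TPM in EV and 14.2, 15.6, 10.6 and 13.6 TPM in KRT19 libraries. KRT19 replicate 3 was the lowest library, and the other 3 KRT19 libraries lay in or near the range of the EV group.

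Integrins held the highest levels of the 82 members. ITGB1 (chr10:32900319-33005792), the beta subunit shared by most matrix receptors, was at 569.6, 572, 537 and 549.3 TPM in EV and 512, 540.1, 548 and 527 TPM in KRT19 libraries, and ranked at position 218 of the 58735 genes by mean TPM. ITGB5 (chr3:124761948-124901418), a partner of ITGAV, was at 149.9, 147, 158 and 145 TPM in EV and 162, 148, 134 and 139 TPM in KRT19 libraries. ITGB4 (chr17:75721328-75757818), the hemidesmosome subunit, was at 40.8, 38.0, 42.8 and 39.7 TPM in EV and 40.8, 38.9, 28.9 and 36.7 TPM in KRT19 libraries. ITGB4 was lowest in KRT19 replicate 3, and for ITGB5 the KRT19 group spanned the whole EV range. ITGB3 was expressed at 3.90 to 5.74 TPM, ITGB6 (0.808 to 1.74 TPM) and ITGB8 (0.653 to 1.26 TPM) were low, and the leukocyte subunits ITGB2 and ITGB7 did not exceed 0.410 and 0.288 TPM.

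Among the alpha subunits the laminin receptors led. ITGA3 (chr17:50055968-50090481), the alpha subunit of α3β1, was at 358, 345, 375 and 365 TPM in EV and 368, 365, 320.4 and 356 TPM in KRT19 libraries. ITGA6 (chr2:172427354-172506282), which pairs with β1 and β4, was at 206, 193, 167 and 184 TPM in EV and 165, 184, 181 and 167 TPM in KRT19 libraries. ITGA5 (chr12:54395261-54419460), of the fibronectin receptor, was at 86.9, 82.4, 92.9 and 92.4 TPM in EV and 84.6, 88.0, 68.1 and 80.8 TPM in KRT19 libraries. The order ITGA3, ITGA6, ITGA5 held in all 8 libraries with no overlap between the genes. ITGAV (32.8 to 43.4 TPM), the subunit of most receptors for the RGD sequence, and ITGA4 (22.8 to 29.9 TPM), which binds VCAM-1 and fibronectin, came next. Of the subunits that bind collagen, ITGA10 was at 8.61 to 11.8 TPM, ITGA2 at 5.00 to 6.30 TPM and ITGA1 at 1.30 to 2.21 TPM, while ITGA11 did not exceed 0.0956 TPM. ITGAE, known from lymphocytes within epithelia, was at 9.18 to 10.3 TPM and ITGA7, a laminin receptor of muscle, at 1.36 to 3.003 TPM. The platelet subunit ITGA2B was low at 0.608 to 1.54 TPM, ITGA9 did not exceed 0.198 TPM, and ITGA8 and ITGAL were at the floor. Of the platelet markers, PF4 and PPBP had 0 counts and GP1BA was at 1.66 to 3.18 TPM. The myeloid subunits ITGAM and ITGAX were low, at 0.416 to 1.15 and 0.0662 to 0.242 TPM. As means of 8 libraries, ITGA3 took 49.7% of the summed alpha TPM, ITGA6 25.2%, ITGA5 11.8%, ITGAV 5.26% and ITGA4 3.71%, and ITGB1 took 73.8%, ITGB5 20.04% and ITGB4 5.19% of the beta TPM.

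Pairs and trimers were then read from these calls, using known human integrin pairs with both subunits among the members, 13 laminin trimers and 9 collagens of more than 1 kind of chain. Of 23 integrin pairs, 12 had both subunits expressed, among them 9 of the 12 pairs with ITGB1 (α1, α2, α3, α4, α5, α6, α7, α10 and αV), αVβ3, αVβ5 and α6β4. The α8, α9 and α11 subunits were missing for ITGB1. αVβ6, αVβ8 and αIIbβ3 each lacked a subunit at 1 TPM in every library. ITGB7 was missing for ITGA4 and ITGAE, and all 3 listed leukocyte pairs with ITGB2 lacked both subunits. The summed TPM of the alpha subunits that pair with ITGB1 was 1.30 times that of ITGB1 (1.21 to 1.36 over 8 libraries), counting ITGA6 and ITGAV in full although they also pair elsewhere. The ITGA6 to ITGB4 ratio was 4.78 (3.90 to 6.25).

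**Figure D3:**
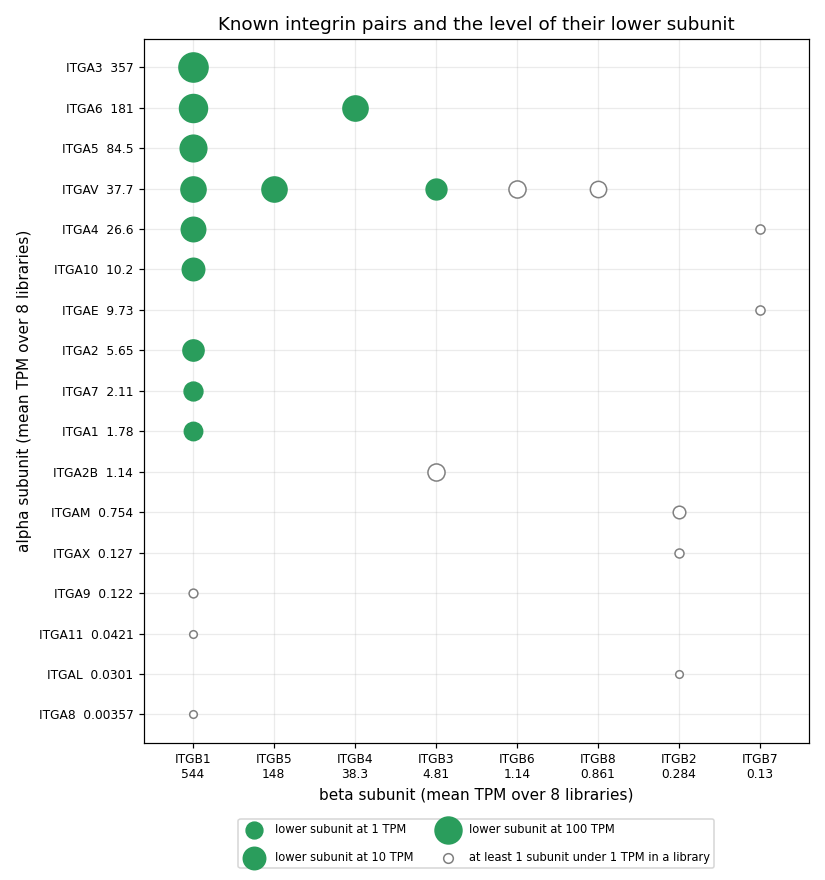
Known integrin pairs with both subunits among the members, placed by alpha (vertical axis) and beta (horizontal axis) subunit, each labelled with its mean TPM over 8 libraries. Filled green circles are the 12 pairs with both subunits at 1 TPM or more in every library, with circle size growing with the logarithm of the level of the lower subunit, and open circles are the other 11 of 23. The column of ITGB1 holds most of the filled circles, with ITGA3 and ITGA6 at the top.

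Of the 13 laminin trimers, 6 had all chains expressed, namely laminin-211, laminin-221, laminin-213, laminin-511, laminin-521 and laminin-523. Laminin-511 and laminin-521 were limited by LAMA5 (mean 34.5 TPM over 8 libraries), laminin-211 and laminin-221 by LAMA2 (4.90 TPM), and laminin-213 and laminin-523 by LAMC3 (1.54 TPM). Laminin-311 and laminin-321 fell short through LAMA3, whose mean of 1.06 TPM over 8 libraries lay close to the limit, and they counted as complete with a limit of 0.5 TPM. None of the 9 collagens made of several chains had all chains at 1 TPM in every library, and in each of them the lowest chain had a mean of 0.264 TPM or less over the 8 libraries. Collagen VI was the 1 collagen of these with any chain expressed, namely COL6A1 and COL6A2 at a mean ratio of 1.61 (COL6A2 over COL6A1), with COL6A3 at the floor.

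To ask whether these families differed with KRT19, each member that passed the low-count filter was compared between the groups with edgeR's quasi-likelihood test over 14621 genes. The filter kept 43 of the 82 members, the 32 expressed and 11 low ones. None of the 43 had an adjusted p under 0.05, against 0.00684% of all genes tested, which is KRT19 alone. Adjusted p-values of the members lay between 0.906 and 0.994 (edgeR, Benjamini-Hochberg). At an unadjusted p under 0.05 there were 3 members, or 6.98%, where 5.41% of all genes reached it. At that level the DESeq2 Wald test gave 2 members, where 3.97% of all genes reached it, and limma-voom gave 7, where 9.14% of all genes did, none of them past the adjusted threshold. Of the 3, COL5A2 and ITGAM were higher in KRT19 (2.85% of all genes) and LAMA5 was lower (2.56% of all genes).

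COL5A2 (ENSG00000204262, chr2:189031896-189225312), a minor chain of collagen V that regulates fibril width, had 16, 27, 26 and 26 counts in EV and 43, 26, 32 and 34 counts in KRT19 libraries. These are 0.524, 0.785, 0.750 and 0.734 TPM in EV and 1.24, 0.906, 0.914 and 1.07 TPM in KRT19 libraries. All 4 KRT19 libraries lay above all EV libraries. Its log2 fold change reached 0.56 ± 0.22 (SE), with an unadjusted p of 0.0199 and an adjusted p of 0.906 (edgeR) and an exact permutation p of 0.0286, the smallest that 4 libraries against 4 allow. Its partner COL5A1 had 0 counts in every library. Without EV replicate 1 the log2 fold change was 0.44, and the call at an unadjusted p under 0.05 was lost, as it was without KRT19 replicate 1.

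ITGAM (ENSG00000169896, chr16:31259967-31332892), the CD11b subunit of myeloid cells, had 12, 24, 11 and 15 counts in EV and 22, 19, 21 and 28 counts in KRT19 libraries. As TPM this gave 0.515, 0.914, 0.416 and 0.555 in EV and 0.828, 0.868, 0.786 and 1.15 in KRT19 libraries, with EV replicate 2 inside the KRT19 range. Its log2 fold change reached 0.59 ± 0.28 (SE), with an unadjusted p of 0.0485 and an adjusted p of 0.906 (edgeR) and an exact permutation p of 0.114. The unadjusted p stayed under 0.05 on leaving out EV replicate 2 or KRT19 replicate 3 and on leaving out no other library. Its partner ITGB2 was at 0.157 to 0.410 TPM with overlap of the groups, and the summed leukocyte markers were at 0 to 0.759 TPM in EV and 0.488 to 1.07 TPM in KRT19 libraries. The myeloid markers CD14 and CD68 had higher means in KRT19, the direction of ITGAM, and their part in the ITGAM values was not tested.

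LAMA5 (ENSG00000130702) had a log2 fold change of -0.16 ± 0.063 (SE, 95% interval -0.30 to -0.03), with an unadjusted p of 0.0183 and an adjusted p of 0.906 (edgeR). Scaled by TMM, LAMA5 stood at 147, 132, 153 and 148 CPM (EV) and 133, 134, 114 and 136 CPM (KRT19), so EV replicate 2 lay below the highest KRT19 libraries (exact permutation p = 0.114). KRT19 replicate 3 was the lowest, and without it the log2 fold change was -0.11 with an unadjusted p of 0.0491 (edgeR). Without EV replicate 3 the unadjusted p was 0.0556 (edgeR).

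A complete separation of the groups in CPM was found for 3 of the 43 members (6.98%), against 3.44% of all genes tested. COL5A2 was higher in KRT19 (1.63% of all genes). The others were ITGB1 and LAMB1, both lower in KRT19 (1.81% of all genes). ITGB1 stood at 933, 957, 914 and 924 CPM (EV) and 867, 889, 905 and 896 CPM (KRT19), a gap of less than 10 CPM between the nearest libraries, and its TPM values overlapped. Its log2 fold change was -0.07 ± 0.042 (SE), with an unadjusted p of 0.122 (edgeR) and an exact permutation p of 0.0286. LAMB1 stood at 128, 122, 125 and 126 CPM (EV) and 119, 121, 112 and 121 CPM (KRT19). Its log2 fold change was -0.08 ± 0.050 (SE), with an unadjusted p of 0.110 (edgeR), and its TPM values overlapped too. Of the members outside the filter, COL26A1 had 4, 3, 6 and 5 counts in EV and 0, 1, 3 and 1 counts in KRT19 libraries, without overlap in CPM (exact permutation p = 0.0286), which is a difference of few reads.

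With the main settings the other named members had an unadjusted p above 0.05 and overlapping groups. Among the collagens the log2 fold change was -0.05 ± 0.049 for COL18A1, -0.12 ± 0.066 for COL6A2 and -0.10 ± 0.079 for COL6A1 (SE). It was 0.06 ± 0.110 for COL12A1, 0.01 ± 0.158 for COL16A1, -0.16 ± 0.116 for COL13A1 and -0.07 ± 0.109 for COL17A1. It was -0.04 ± 0.168 for COL7A1, -0.08 ± 0.103 for COL27A1 and -0.17 ± 0.148 for COL4A5. COL12A1, COL16A1 and COL7A1 changed direction when single libraries were left out. COL4A5 was at -0.35 under limma-voom (unadjusted p 0.0243, adjusted p 0.494). It was at -0.065 without KRT19 replicate 4 and -0.295 without KRT19 replicate 3. COL13A1 was at -0.099 without EV replicate 2 and at -0.227 without KRT19 replicate 1. COL17A1 was at -0.022 without EV replicate 4 and COL27A1 at -0.035 without EV replicate 3. Among the laminins it was 0.06 ± 0.054 for LAMB3, -0.07 ± 0.069 for LAMB2, -0.04 ± 0.052 for LAMC1 and 0.25 ± 0.169 for LAMC3. For LAMA2 and LAMA3 it was -0.07 ± 0.090 and 0.16 ± 0.140. LAMC1 was above 0 without KRT19 replicate 3, where LAMB2 was at -0.0019. LAMB3 was at 0.0091 and LAMA3 at 0.091 without KRT19 replicate 1, LAMC3 at 0.14 without EV replicate 2 and LAMA2 at -0.032 without KRT19 replicate 4.

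Fibronectin and the integrin subunits other than ITGAM and ITGB1 had an unadjusted p above 0.05 and overlapping groups as well with the main settings. FN1 had a log2 fold change of -0.11 ± 0.087 (SE), which was -0.0016 without KRT19 replicate 3. ITGA3 was at -0.03 ± 0.054, ITGA6 at -0.10 ± 0.054, ITGA5 at -0.14 ± 0.072, ITGB5 at -0.04 ± 0.061 and ITGB4 at -0.15 ± 0.087 (SE). Without KRT19 replicate 3, ITGA3 was at 0.014, ITGA5 at -0.066, ITGB4 at -0.049 and ITGB5 at -0.00016, while ITGA6 was at -0.12. ITGA6 was at -0.067 without EV replicate 1 and at -0.149 without EV replicate 3. Of 17 alternative settings, the unadjusted p was under 0.05 in 7 for ITGA5 (lowest 0.0112), in 6 for ITGA6 (0.00706), in 4 for ITGB4 (0.0173) and in 2 for ITGB1, all with a lower level in KRT19 and with adjusted p-values of 0.405 or more (edgeR and the other tools run). The 95% interval of the log2 fold change lay within 0.25 of 0 for 13 of the 32 expressed members, within 0.5 for 30 and within 1 for all 32. For the 11 low members tested, 2 intervals lay within 0.5 and 8 within 1, so the remaining intervals reached past 1.

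**Figure D4:**
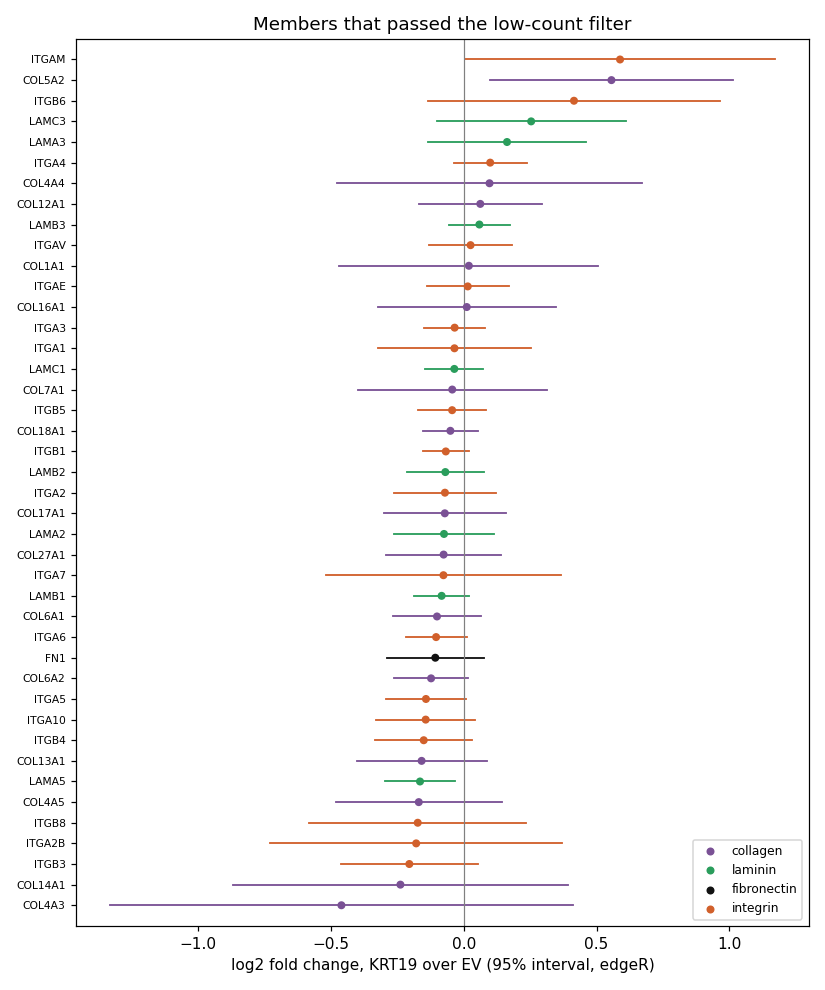
Log2 fold change of KRT19 over EV for 42 of the 43 members that passed the low-count filter, as a point with its 95% interval from edgeR, coloured by family and sorted by size. The intervals of COL5A2 and ITGAM lie above 0 and that of LAMA5 below it, all 3 without adjustment, and the other 39 intervals shown cross 0.

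The members that passed the filter were more often below 0 than genes in general, as a description and with no test. The log2 fold change was below 0 for 30 of 43 members (69.8%), against 47.8% of all 14621 genes, and its median was -0.069 against 0.0051. The medians were -0.071 for 15 collagens, -0.036 for 9 laminins and -0.069 for 18 integrins. Without KRT19 replicate 3, 30 of 44 members were below 0 and the median was -0.049, with 4 of 9 laminins below 0 and a laminin median of 0.0079. Over all 82 members, the share of all counts was 0.413% to 0.424% in EV and 0.386% to 0.411% in KRT19 libraries, with no overlap. ITGB1, ITGA3 and ITGA6 held the most counts of the members, so the share follows them most, and ITGB1 is also among the separated genes above. How often such sums separate in other gene sets was not examined. The lowest value was that of KRT19 replicate 3, and the other KRT19 libraries were at 0.403% to 0.411%. Summed beta integrins were at 755 ± 13.2 TPM (EV) and 720.5 ± 10.1 TPM (KRT19, SD, n = 4), while summed laminins were at 447 ± 9.19 and 443 ± 24.2 TPM, summed collagens at 99.8 ± 2.99 and 95.1 ± 3.35 TPM and all integrins at 1487 ± 22.9 and 1424 ± 33.5 TPM.

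The make-up of the families within a library was compared through 28 quantities, namely the shares of single subunits in their class and ratios between partner chains. None of the 28 separated the groups. The smallest exact permutation p (two-sided) was 0.0571, for the share of LAMB1 in the beta laminins, at 20.9% ± 0.608 in EV and 19.7% ± 0.985 in KRT19 (SD over 4 libraries each), and the smallest Benjamini-Hochberg adjusted value over the 28 was 0.667. ITGA3 made up 49.3% ± 1.89 of the alpha TPM in EV and 50.1% ± 2.00 in KRT19 libraries, and ITGB1 made up 73.8% ± 1.22 and 73.8% ± 2.21 of the beta TPM.

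The genes that process, join and bind these proteins were described next, in 5 lists. The counts of each list stand beside 47.8% of all genes tested with a log2 fold change below 0 and 5.41% at an unadjusted p under 0.05 (2.56% lower and 2.85% higher in KRT19). Of 30 genes of collagen processing, 25 were expressed and 27 were tested, with 20 below 0, a median log2 fold change of -0.079 and 2 at an unadjusted p under 0.05, both lower in KRT19. P4HA1, a catalytic subunit of prolyl 4-hydroxylase, averaged 92.9 ± 3.98 CPM in EV against 82.8 ± 3.17 CPM in KRT19 (both SD), with a log2 fold change of -0.17 ± 0.054 (SE, unadjusted p 0.00689, adjusted p 0.868, edgeR). PLOD1, a lysyl hydroxylase of collagen, was at 141 ± 3.91 and 119.9 ± 14.8 CPM (-0.23 ± 0.071, unadjusted p 0.00476, adjusted p 0.868, edgeR). Both lay lower in KRT19 without overlap in CPM, as did 1.81% of all genes tested, and so did PCOLCE2, which enhances procollagen cleavage, at 16.06 ± 0.719 and 14.99 ± 0.434 CPM (-0.10 ± 0.078, unadjusted p 0.227, edgeR). PLOD1 was at -0.16 without KRT19 replicate 3. The collagen chaperone SERPINH1 (85.4 to 96.3 TPM) and the crosslinking enzyme LOXL2 (94.1 to 122 TPM) were abundant although fibrillar collagen transcripts were scarce.

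Of 14 partners of the basement membrane, 7 were expressed and 9 tested, with 7 below 0, a median of -0.11 and 2 at an unadjusted p under 0.05 (5.41% of all genes). SPARC, a collagen-binding protein, averaged 2.73 ± 0.282 CPM in EV against 2.00 ± 0.490 CPM in KRT19 (log2 fold change -0.45 ± 0.20, unadjusted p 0.0404, edgeR), and -0.29 without KRT19 replicate 3. FRAS1, of the Fraser complex, was at 1.34 ± 0.436 and 0.828 ± 0.0455 CPM (-0.68 ± 0.28, unadjusted p 0.0278, edgeR), and -0.48 without EV replicate 1. Both lay lower in KRT19 without overlap (1.81% of all genes) and had an adjusted p of 0.906 (edgeR). The unadjusted p of SPARC was above 0.05 without EV replicate 1, 3 or 4 or KRT19 replicate 2 or 3, and that of FRAS1 without replicate 1 or 2 of EV or replicate 1 or 4 of KRT19. Agrin (AGRN, 45.2 to 56.3 TPM), perlecan (HSPG2, 18.3 to 24.2 TPM) and nidogen-1 (NID1, 16.8 to 22.6 TPM) were expressed beside the laminins. SMOC1 and SMOC2 had 0 counts.

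Of 34 other integrin ligands, 20 were expressed and 23 tested, with 16 below 0 and a median of -0.061. CCN2, the connective tissue growth factor, was the 1 gene of 23 at an unadjusted p under 0.05 (5.41% of all genes), with 48.5 ± 0.736 CPM in EV against 55.2 ± 2.00 CPM in KRT19 (log2 fold change 0.19 ± 0.054, unadjusted p 0.00284, adjusted p 0.868, edgeR), with no overlap of the groups (1.63% of all genes higher in this way). The highest levels were those of CCN1 (499.9 to 560.1 TPM), TGFB1 (276 to 341 TPM), whose latent form binds αV integrins, and osteopontin (SPP1, 275 to 304 TPM). Thrombospondin-1 (THBS1) was at 54.5 to 64.2 TPM and tenascin-C (TNC) at 13.6 to 15.8 TPM, while vitronectin (VTN) did not exceed 0.26 TPM. E-cadherin (CDH1), the ligand of αEβ7, did not exceed 0.0341 TPM.

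Of 36 adaptors of adhesion sites, 28 were expressed and 31 tested, with 20 below 0, a median of -0.016 and 2 at an unadjusted p under 0.05 (5.41% of all genes). Vinculin (VCL) averaged 521.5 ± 18.6 CPM in EV against 485 ± 14.5 CPM in KRT19 (log2 fold change -0.10 ± 0.045, unadjusted p 0.0354, edgeR), with overlap of the groups. PTK2B, a kinase related to focal adhesion kinase, was at 2.18 ± 0.201 and 1.44 ± 0.345 CPM (-0.58 ± 0.22, unadjusted p 0.0160, edgeR), without overlap (1.81% of all genes). Both had an adjusted p of 0.906 (edgeR). For VCL the unadjusted p stayed under 0.05 only on leaving out EV replicate 2 or KRT19 replicate 2, and for PTK2B it was 0.0522 without KRT19 replicate 2 (edgeR, log2 fold change -0.45). Plectin (PLEC, 171 to 209.9 TPM) and CD151 (265 to 318 TPM), known partners of α6β4 and α3β1, were abundant. Of 14 other matrix receptors, 11 were expressed and 12 tested, with 11 below 0, a median of -0.075 and none at an unadjusted p under 0.05. CD44 (185 to 214 TPM), syndecan-4 (SDC4, 134 to 159.6 TPM) and dystroglycan (DAG1, 92.7 to 105 TPM) led this list together with RPSA, which also encodes a ribosomal protein. CD44 lay lower in KRT19 without overlap in CPM, as did 1.81% of all genes tested (log2 fold change -0.09 ± 0.044, unadjusted p 0.0654, edgeR). None of the genes of the 5 lists passed the adjusted threshold in edgeR with the main filter. PLOD1 did with the looser one (adjusted p 0.0374, edgeR), where 71 of 30250 genes passed, against KRT19 alone with the main filter.

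Some of the counts are uncertain because exons overlap other genes and the handling of strand in the counting is not given in the sources used here. ITGB3 shares 51.6% of its exon bases with a gene on the same strand (AC068234.1), ITGB6 20.6% with AC092153.1 and ITGA1 6.39% with AC022133.1, both on the same strand too. On the opposite strand, ITGB7 shares 42.1% with ZNF740, COL18A1 16.4% with SLC19A1, ITGAE 7.59% with HASPIN and LAMA5 2.54% with ADRM1. Of the sequence of ITGB1, 8.28% of words of 75 bases also occur in transcripts of other genes. The levels of ITGB3 and of the αVβ3 pair rest on the way these shared reads were assigned.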

How the data were processed

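RNA-seq of cells labelled A549 was analysed in 4 EV and 4 KRT19 libraries, with groups and replicate numbers from the sample titles. The authors deposited raw counts of reads per gene on hg38 in 1 table, with no normalization. Total RNA was isolated with TRIzol, a NEBNext Ultra kit was used for the libraries, and the submitters' processing notes name Bowtie 0.12.2, featureCounts 1.5.0-p3 and DESeq2. Strand and multi-mapping settings are not given in the sources used here. All 58735 genes had the span and exon length of GENCODE 29, and every row named a gene.

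TPM was computed from the counts and the deposited gene length. Counts were tested in R 4.3.3 with edgeR 4.0.16 (filterByExpr, TMM, glmQLFit and glmQLFTest, group as the 1 factor). The filter kept 14621 genes with 99.84% of the counts or more, with a biological coefficient of variation of 6.86%. P-values are two-sided, with Benjamini-Hochberg adjustment over all genes tested and a threshold of 0.05. Because the study states p at 0.05 without naming an adjustment, calls without adjustment are counted too. CPM used TMM-scaled library sizes, and the SE of a log2 fold change is its size over the square root of F. Single values were also compared by exact permutation, whose smallest p was 0.0286.

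Values in every library are given for members with an unadjusted p under 0.05 and for up to 3 members of each class with the highest mean TPM of at least 1, and list genes with an unadjusted p under 0.05 are named, except 1 member that is not reported here and enters counts and sums alone. Other list genes and COL26A1, ITGB1 and LAMB1 as separated members were picked after their values were seen or as markers. The members and lists were chosen with earlier results of these data known. CCN1 and CCN2, absent under these names, were matched by gene identifier (CCN2 is CTGF in the table). Alternatives were DESeq2 1.42.0 size factors and Wald test, upper-quartile normalization, limma 3.58.1 voom with quality weights, looser and stricter filters, a replicate block, removal of GC and length trends (splines with 5 degrees of freedom), leaving out each library, and other limits and lengths for TPM. The fit was tested on simulated data.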

Additional observations from a re-analysis of the deposited data

Results flagged for a closer look

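Values of 124 groups of 4 libraries were checked, and a library was listed when the distance to its nearest neighbour, as a share of the whole range of the group, was above the critical value of Dixon's test at 95%. This happened 5 times, where chance gives about 6.2, and no explanation was tested.

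FN1 was highest in EV replicate 1, at 15.4 TPM against 14.2 to 14.4 TPM in the other EV libraries (gap of 0.844 of the range). The summed collagens were also highest in EV replicate 1, at 104 TPM against 98.2 to 98.4 TPM (0.978). LAMC3 was lowest in EV replicate 2, at 1.06 TPM against 1.48 to 1.55 TPM (0.855). The summed leukocyte integrins ITGAL, ITGAM, ITGAX and ITGB2 were highest in EV replicate 2, at 1.46 TPM against 0.887 to 0.955 TPM (0.88). The share of ITGB5 in the beta integrin TPM was highest in EV replicate 3, at 21.2% against 19.2% to 19.6% (0.834).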

How the results depend on the processing

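The number of members past the adjusted threshold was 0 in edgeR's main analysis and under all 17 alternatives. At an unadjusted p under 0.05 the count of 3, beside 5.41% of all genes, became 7 under limma-voom (9.14% of all genes), 8 under the looser filter (77 members tested, 5.15%), 1 under the stricter filter (28 tested, 5.33%) and 7 after removal of GC and length trends (8.19%). Over the left-out libraries it lay between 1 and 4, beside 4.19% to 8.28% of all genes. It was 1 (LAMA5) without EV replicate 1 (5.18% of all genes) and 4 without KRT19 replicate 1 (8.28%). Libraries of the same replicate number did not deviate together (correlations of same-numbered deviations -0.111, -0.0239, -0.159 and 0.0567). With the replicate block 3 members (COL5A2, ITGAM and LAMA5) and 451 genes in all had an unadjusted p under 0.05, against 791 without it, and the block after removal of GC and length trends gave 7 members, beside 6.62% of all genes.

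Of 34 named members and list genes, 29 kept their direction under every alternative run. COL12A1 ranged from -0.0073 to 0.183 over the left-out libraries. COL16A1 reversed to -0.00085 with upper-quartile normalization and ranged from -0.081 to 0.17 over the left-out libraries. COL7A1 ranged from -0.19 to 0.055, ITGA3 from -0.063 to 0.014 and LAMC1 from -0.061 to 0.0079 over them. PLOD1 passed the adjusted threshold with the looser filter (log2 fold change -0.23, adjusted p 0.0374, edgeR), among 71 of 30250 genes that did so there. The cause of these shifts was not tested.

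Members called expressed were 39 at a limit of 0.5 TPM, 26 at 2 TPM, 31 with the length of the longest transcript and 33 without KRT19 replicate 4. Integrin pairs were 15, 10 and 12, and laminin trimers 8, 4 and 4, under the first 3 of these.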
